A study of Homo sapiens with 30 samples.

Results

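The joint induction of MEF2C and of ICN, the label for the intracellular part of NOTCH1, was set against the induction of MEF2C alone in LOUCY cells, an established human line of early T cell progenitor leukemia (ETP-ALL). The quantity described is a difference of differences: the effect of doxycycline (dox) in the line that carries both constructs, minus the effect of dox in the line that carries MEF2C alone. It rests on 12 of the 30 arrays of the study, 3 in each of 4 groups. The study asked how MEF2C and Notch signaling act on the choice between the T and B cell lineages, and the other 18 arrays hold a line with ICN alone in medium and the MEF2C line on OP9 stromal cells.

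All cells were LOUCY cells. The study describes modifying LOUCY cells by lentivirus with flow sorting, and its MEF2C line as a bulk line. How the lines with ICN were made is not described in the sources used here. The first line (the MEF2C line) carried a dox-inducible MEF2C construct with a BFP reporter, codon optimized and lacking the β domain, and was cultured in medium without dox (M-) or with dox (M+). The second line (the joint line) carried that kind of MEF2C construct together with an ICN construct, without dox (M_ICN-) or with dox (M_ICN+). The third line (the ICN line) carried ICN alone, without dox (ICN-) or with dox (ICN+). The stroma arrays are of the MEF2C line without and with dox on OP9-GFP cells, the control stroma, or on OP9-DL1 cells, which present the Notch ligand DL1. The study describes its arrays of the MEF2C line as taken after a day of dox. The form of ICN and the time in dox of the joint line and the ICN line are not given in the sources used here. Whether the replicates of a group were cultured separately is not stated. The p-values therefore reflect array-to-array spread alone, and that spread could be purely technical. The joint line and the MEF2C line differ in their construct and in being separate lines, and these cannot be told apart.

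When a Notch receptor binds its ligand, its intracellular part is cut free and moves to the nucleus, where it joins RBPJ on DNA and, with a MAML coactivator, turns on target genes. In the thymus this signal commits progenitors to the T lineage and holds back the B lineage, and mutations of *NOTCH1* that free the intracellular part are common in T-ALL. MEF2C is a MADS box transcription factor of muscle, neurons and the B lineage that is aberrantly active in ETP-ALL, and its activity is held down by class IIa histone deacetylases.

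Levels below are log2 signals of Affymetrix probe sets, a gene being read from its brightest probe set, and induction effects are differences of them, so that a log2 difference of 1 is a doubling. Errors of differences are standard errors (SE). The adjusted p is limma's, adjusted over all probe sets, and a gene was called at an adjusted p under 0.05. The 12 arrays had median log2 levels from 4.768 to 4.836, and arrays of a group correlated at 0.9957 to 0.9973. The 10 markers of T cells and of LOUCY, averaged by array, had log2 levels from 8.815 to 9.385 over the 12 arrays. Single ones had mean levels from 5.39 (*CD34*) to 11.83 (*CD3D*), and the median gene level was 5.72. In the difference 2 of the 10 were called higher and 3 lower, *MEF2C* itself among the lower. Array means were 5.556 to 6.274 for 4 B cell markers, 5.552 to 6.429 for 2 erythroid ones, and 3.590 to 4.688 for 4 myeloid, 4 NK and 6 stromal ones. Of these other markers 0 were called, which does not show that they were absent. In bulk cells, fewer cells of a kind and less RNA per cell cannot be told apart.

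Of the 2 *NOTCH1* probe sets, the dimmer one had log2 levels of 4.23, 4.19 and 4.29 in M_ICN- and 4.90, 5.17 and 5.07 in M_ICN+, and 3.87, 4.11 and 4.15 in M- and 4.28, 3.97 and 4.14 in M+. The joint line thus rose with no overlap and the MEF2C line did not. The log2 difference was 0.72 ± 0.21 (SE, adjusted p = 0.0359), and the call was lost under quantile normalization (0.67), under median centring (0.68) and when any 1 of 9 of the 12 arrays was left out. It held without M- replicate 1, M+ replicate 1 or M_ICN+ replicate 1, and the 12 values ran from 0.64 to 0.81. The brighter probe set of *NOTCH1* had a log2 difference of -0.25 (adjusted p = 0.2226). On the dimmest of the 3 *MEF2C* probe sets with 1 symbol, dox gave log2 effects of 0.53 in the MEF2C line and 0.66 in the joint line, with a log2 difference of 0.14 ± 0.20 (adjusted p = 0.7828). Both brighter *MEF2C* probe sets fell with dox. The brightest had log2 effects of -1.08 in the MEF2C line and -2.21 in the joint line (difference -1.13 ± 0.07, adjusted p = 4.9e-12), and the next one -1.04 and -2.28 (difference -1.23 ± 0.09, adjusted p = 1.3e-10). Per the study, 1 *MEF2C* probe set of this array also covers the cloned construct and the others lie outside it, reading the endogenous transcript. The study's text does not name it, and of the 3 probe sets read only the dimmest rose with dox in both lines. The study counts more *MEF2C* probe sets than the 3 read here, so the one that covers the construct may not be among them. How well the dimmest probe set binds the codon-optimized sequence is not known, so its level is no measure of how much of the construct either line made.

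Direct Notch targets were higher in the difference in a few cases. *HES1*, a transcriptional repressor that RBPJ turns on, had log2 levels of 9.27, 9.38 and 9.36 in M_ICN- and 10.95, 10.90 and 10.86 in M_ICN+. In the MEF2C line, *HES1* was at 5.56, 5.84 and 5.36 in M- and 5.17, 5.30 and 5.31 in M+. It therefore rose in the joint line from a level that was already far above the MEF2C line without dox, by 3.75 ± 0.10 (adjusted p = 8.3e-19). The log2 difference of its dox effects was 1.89 ± 0.14 (adjusted p = 2.4e-10), a ratio of 3.71-fold, from 1.57 in the joint line against -0.33 in the MEF2C line, and with ICN alone *HES1* rose by 0.40. *HEY1*, a related repressor, had a log2 difference of 1.83 ± 0.15 (adjusted p = 9.9e-10), with dox effects of 2.26 in the joint line, 0.43 in the MEF2C line and 4.96 in the ICN line. Of the 9 Notch target repressors measured, these 2 were called higher, 0 lower and 7 did not pass, with a median log2 difference of 0.12 (0.02 over all 19775 genes). Among all genes, 582 (2.94%) were called higher and 1489 (7.53%) lower, and the count of each list here is to be read beside these shares.

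The promoters of 4 genes are shown for the motifs they carry, the RBPJ core for the Notch targets and the MEF2 core for genes that answered to MEF2C. They are RefSeq sequence (GRCh38.p14), 5′ to 3′ in the direction of the gene, for *HES1* at chr3:194136028-194136147 (plus strand), *HES4* at chr1:1000098-1000217 (minus strand), *CD3D* at chr11:118342706-118342825 (minus strand) and *TTN* at chr2:178807514-178807613 (minus strand). Capitals mark the RBPJ core TGGGAA, on either strand, and the letters CTANNNNTAG. The latter pattern is called the MEF2 core here and is a loose one, since any 4 bases were allowed in its middle. It reads alike on both strands and does not overlap the RBPJ core here.
HES1: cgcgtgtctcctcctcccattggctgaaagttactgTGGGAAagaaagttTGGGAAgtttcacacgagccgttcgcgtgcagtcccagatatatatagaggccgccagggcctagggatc
HES4: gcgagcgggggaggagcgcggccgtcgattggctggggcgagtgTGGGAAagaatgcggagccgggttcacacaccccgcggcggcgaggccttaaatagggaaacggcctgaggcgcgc
CD3D: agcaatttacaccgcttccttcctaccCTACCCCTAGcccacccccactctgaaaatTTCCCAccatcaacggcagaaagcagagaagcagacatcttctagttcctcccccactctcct
TTN: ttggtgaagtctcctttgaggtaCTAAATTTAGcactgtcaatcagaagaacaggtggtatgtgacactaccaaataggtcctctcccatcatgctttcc
*HES1* holds 2 RBPJ cores, whose first bases lie 84 and 70 bases before the start, and *HES4* holds 1, 76 bases before it. *CD3D* holds an RBPJ core 63 bases before the start and a match to CTANNNNTAG 93 bases before it. The free middle of that match is CCCC, so the match is no evidence of a MEF2 site. In a window from 250 bases before to 50 after the start, 24.3% of 27305 promoters held the RBPJ core and 2.83% the MEF2 core. Of the 10 genes with the largest rise of the difference, 6 had a promoter in the table and 2 of them (33.3%) held the RBPJ core. Of the 10 with the largest fall, 9 had one and 2 (22.2%) held it. None of these 15 promoters held the MEF2 core. The core and the call did not go together throughout. *HES5*, *HEY2* and *HEYL*, which were not called in the difference, hold 2 RBPJ cores each in this window, and *IL7R*, which was called higher, holds none. A match is a description of letters and not of binding. For *IL7R* the study cites NOTCH1 binding at enhancer sites in and downstream of the *CAPSL* locus, and the window here covers promoters only.

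*HES4*, a repressor of the same family whose promoter is shown, had a log2 difference of 1.06 ± 0.62 (adjusted p = 0.3720), with log2 levels of 8.24, 7.70 and 8.32 in M_ICN- and 9.30, 9.51 and 9.47 in M_ICN+. Its arrays in the joint line do not overlap, but those of the MEF2C line spread from 7.04 to 8.21. Of the 20 signal modulators of the Notch pathway, *DTX1* was called higher, 7 lower and 12 did not pass (median log2 difference -0.17). Of the 7, *MFNG* lost its call when any 1 of 9 arrays was left out and *MAML3* when any 1 of 4 was. *DTX1* encodes a ubiquitin ligase that binds Notch. Its log2 levels were 4.48, 4.38 and 4.59 in M_ICN- and 7.58, 7.41 and 6.80 in M_ICN+, against 4.44, 3.96 and 4.37 in M- and 4.31, 4.34 and 4.20 in M+. It rose in the joint line and not in the MEF2C line, with a log2 difference of 2.75 ± 0.25 (adjusted p = 1.3e-08). *MAML2*, a coactivator of the Notch complex, was lower in the difference (-1.10 ± 0.18, adjusted p = 9.1e-05), with log2 dox effects of -1.10 in the joint line, -0.01 in the MEF2C line and 2.25 in the ICN line. *FBXW7*, the ligase subunit that marks intracellular Notch for breakdown, was lower by a log2 difference of -0.52 (adjusted p = 7.5e-04). *NRARP*, a feedback inhibitor, and the receptor gene *NOTCH3* did not pass, with log2 differences of -0.14 (adjusted p = 0.6716) and 0.18 (adjusted p = 0.3308).

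Of 23 measured Notch targets among T cell and growth genes, 8 were called higher, 5 lower and 10 did not pass (median log2 difference 0.16). *IL7R*, the receptor chain for interleukin 7, was the largest of them. Its log2 levels were 4.68, 4.68 and 4.87 in M_ICN- and 9.44, 9.35 and 9.41 in M_ICN+, against 4.76, 4.81 and 5.12 in M- and 5.76, 5.85 and 5.57 in M+. Both lines rose without overlap, the joint line much further, and the log2 difference was 3.83 ± 0.17 (adjusted p = 1.4e-14), a ratio of 14.2-fold. *CD28*, the costimulatory receptor, had log2 levels of 4.40, 4.32 and 4.28 in M_ICN- and 7.23, 7.11 and 7.03 in M_ICN+, against 8.35, 8.32 and 8.31 in M- and 8.31, 8.45 and 8.49 in M+. The joint line began far lower than the MEF2C line and stayed below it with dox, while its log2 difference was 2.70 ± 0.12 (adjusted p = 2.3e-14). The protease gene *TASP1* (1.89), *LZTFL1* (1.81), *CD3D* (1.13) and *SHQ1* (0.84), whose product helps to build H/ACA ribonucleoproteins, were also called higher on the log2 scale. The atypical GTPase gene *RHOH* (log2 difference -1.45), the pseudokinase gene *TRIB2* (-1.22), the clock-related repressor gene *BHLHE40* (-1.06) and *GATA3* (-1.01), a T lineage transcription factor, were called lower. *TRIB2* and *GATA3* rose in the MEF2C line (by 1.24 and 0.82 on the log2 scale) and not in the joint line (0.03 and -0.20).

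**Figure D1:**
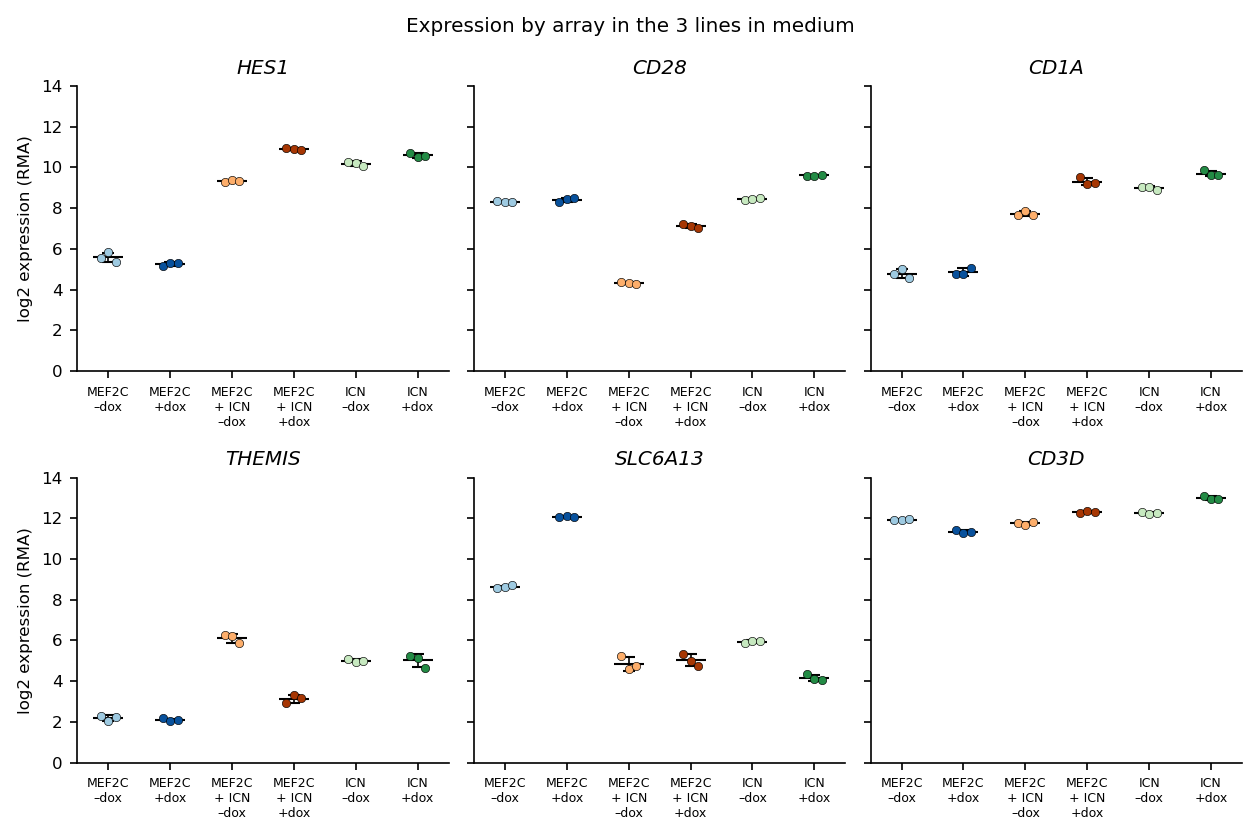
Log2 levels (vertical axis) of *HES1*, *CD28*, *CD1A*, *THEMIS*, *SLC6A13* and *CD3D* in the 6 medium groups. Points are arrays and bars are means ± SD of 3 arrays; *HES1* of the joint line lies near 9.3 without dox, against 5.36 to 5.84 in the MEF2C line, and *CD28* between 4.28 and 4.40, against 8.31 to 8.35.

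The lines differed before dox was given. Between M_ICN- and M-, 4729 genes (23.9%) were called, 2368 higher and 2361 lower in the joint line. Of the genes described here, *THEMIS*, a thymocyte signaling gene (log2 difference of levels 3.93), *HES1* (3.75), the myoglobin gene *MB* (3.22) and *CD1A* (2.95), a surface marker of cortical thymocytes, were higher in M_ICN-. *CD28* (-3.99), the GABA transporter gene *SLC6A13* (-3.78) and *PLEK* (-2.35), which encodes the platelet protein pleckstrin and was chosen after its values were seen, were lower. The part of these starting levels in the differences of the dox effects was not tested.

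At the study's criteria (a log2 difference beyond 0.6 with p under 0.05 and q under 0.1), 856 probe sets were higher and 1734 lower in the difference, of 54613 tested. The difference can be positive because the joint line rose or because the MEF2C line fell. Dox called 1154 genes higher (5.84%) and 2165 lower (10.9%) in the joint line, and 994 (5.03%) and 707 (3.58%) in the MEF2C line. Of the 582 genes higher in the difference, 314 rose in the joint line and were not called in the MEF2C line, 57 rose in both, 56 fell in the MEF2C line and rose in the joint line, 71 fell in the MEF2C line alone, 78 were called in neither and 6 fell in both. Of the 1489 lower ones, 821 fell in the joint line and were not called in the MEF2C line, 172 fell in both, 249 rose in the MEF2C line alone, 137 rose in the MEF2C line and fell in the joint line, 84 were called in neither and 26 rose in both. These comparisons share their arrays with the difference, so the split describes what it is made of.

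The 10 largest rises among genes whose arrays did not overlap are led by *EFEMP1*, which encodes the extracellular matrix protein fibulin-3. Its log2 levels were 3.81, 4.14 and 4.13 in M_ICN- and 11.62, 11.63 and 11.53 in M_ICN+, against 4.44, 4.57 and 4.50 in M- and 5.44, 5.87 and 5.70 in M+. It rose without overlap in both lines, far more in the joint line, and the log2 difference was 6.40 ± 0.19 (adjusted p = 8.2e-18), a ratio of 84.6-fold. *LGMN*, the lysosomal protease legumain, had log2 levels of 2.80, 2.73 and 2.86 in M_ICN- and 8.47, 8.58 and 8.37 in M_ICN+, with a log2 difference of 5.05 ± 0.39 (adjusted p = 4.7e-10). *TMEM158*, a membrane protein gene turned on by RAS signaling, went from 5.51, 5.33 and 5.23 to 10.23, 10.15 and 10.16 on the log2 scale in the joint line, with a log2 difference of 4.68 ± 0.15 (adjusted p = 4.2e-17). Neither *LGMN* (0.63, adjusted p = 0.2267) nor *TMEM158* (0.15, adjusted p = 0.5467) was called in the MEF2C line.

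*SLAIN1*, a gene of microtubule growth, rose in the MEF2C line, from log2 levels of 2.03, 2.18 and 2.21 to 4.09, 4.63 and 4.56. In the joint line it went from 2.29, 1.95 and 2.14 to 8.66, 8.76 and 8.59. With ICN alone *SLAIN1* stayed at 2.17 to 2.37 without dox and 2.17 to 2.34 with dox. The log2 dox effects were 6.55 in the joint line, 2.29 in the MEF2C line and 0.03 in the ICN line. Signal over background was not assessed, so at such low starting levels the size of a rise is uncertain. The noncoding RNA genes *LOC101927432* (log2 difference 4.26) and *LINC02762* (3.95), the amino acid transporter gene *SLC3A1* (3.72) and the heparan sulfate enzyme gene *NDST3* (3.40) were called in the joint line and not in the MEF2C line. *LINC02762*, *SLC3A1* and *NDST3* rose with ICN alone as well, by 3.79, 4.49 and 2.72 on the log2 scale. *ST18*, a zinc finger factor, completes the 10 with opposite dox effects: it fell in the MEF2C line from log2 levels of 4.33, 4.65 and 4.47 to 2.50, 2.55 and 2.57 and rose in the joint line from 5.51, 5.35 and 5.35 to 7.17, 6.65 and 6.80 (log2 difference 3.42 ± 0.25, adjusted p = 1.1e-10).

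**Figure D2:**
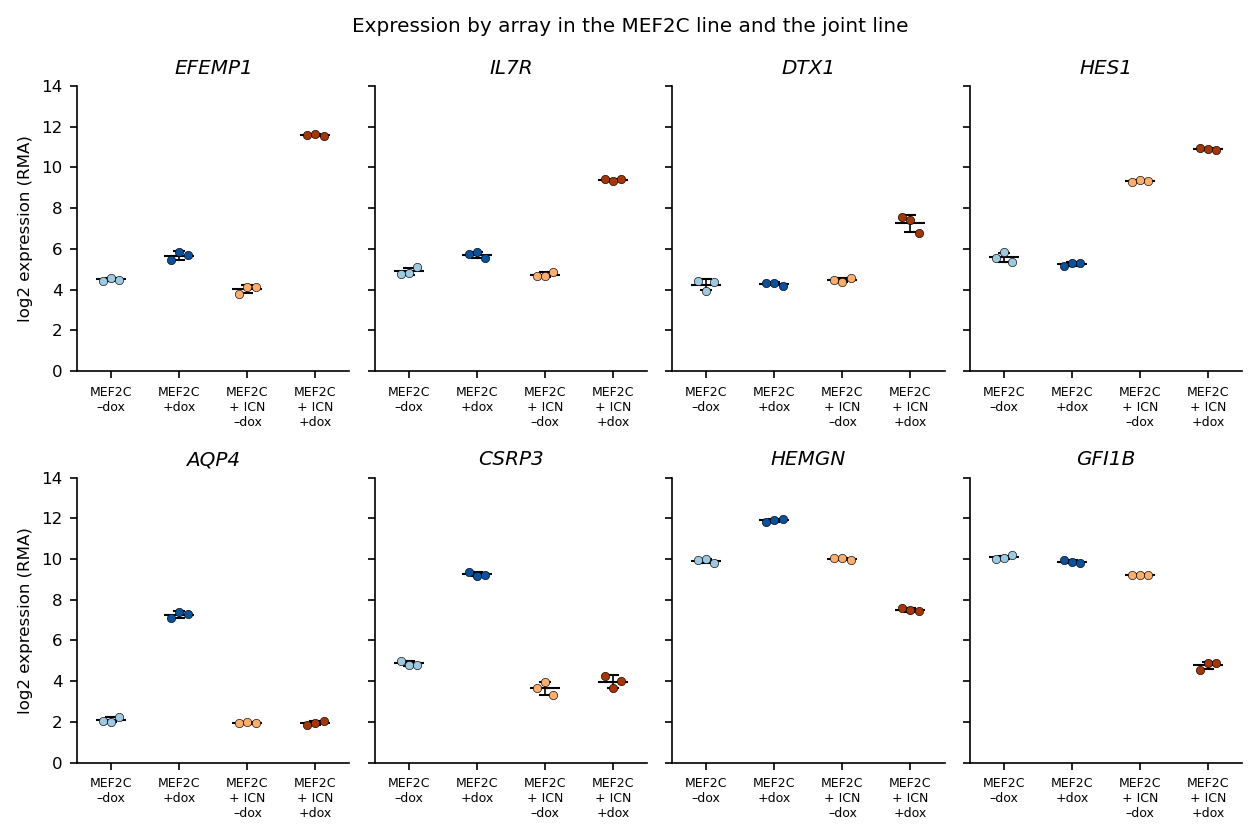
Log2 levels (vertical axis) by array of 4 genes higher and 4 lower in the difference, in M-, M+, M_ICN- and M_ICN+. Points are arrays and bars are means ± SD of 3 arrays; *EFEMP1* ends at 11.53 to 11.63 in M_ICN+, while *AQP4* reaches 7.08 to 7.41 in M+ and stays at 1.84 to 2.04 in M_ICN+.

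Among the 10 largest falls, some genes that rose with MEF2C in its own line were not called in the joint line. *AQP4*, a water channel, had log2 levels of 2.06, 2.01 and 2.27 in M- and 7.08, 7.41 and 7.28 in M+, against 1.93, 2.01 and 1.94 in M_ICN- and 1.84, 1.93 and 2.04 in M_ICN+. The joint line stayed at its uninduced level, with a log2 difference of -5.17 ± 0.19 (adjusted p = 3.3e-16). *FCER1A*, the α chain of the high-affinity IgE receptor (log2 difference -4.12 ± 0.20), went from 3.26, 2.97 and 3.47 to 7.23, 7.37 and 7.79 in the MEF2C line and from 2.45, 2.43 and 2.43 to 2.33, 2.44 and 2.87 in the joint line. *CSRP3*, a LIM protein of striated muscle, went from log2 levels of 5.01, 4.79 and 4.81 to 9.34, 9.14 and 9.24 in the MEF2C line and from a range of 3.33 to 3.96 to one of 3.65 to 4.28 in the joint line (log2 difference -4.04 ± 0.22, adjusted p = 7.4e-13). *MMP20*, an enamel protease (-3.77), and *SLC6A13* (-3.27) showed the same on the log2 scale, with dox effects of 4.03 and 3.45 in the MEF2C line and 0.26 (adjusted p = 0.4144) and 0.18 (adjusted p = 0.4269) in the joint line. *SLC6A13* started from 4.59 to 5.23 in M_ICN- against 8.59 to 8.70 in M-.

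A second kind fell in the joint line. *HEMGN*, a nuclear protein of blood progenitors, had log2 levels of 9.93, 10.01 and 9.80 in M- and 11.84, 11.90 and 11.96 in M+, but 10.05, 10.05 and 9.96 in M_ICN- and 7.58, 7.50 and 7.42 in M_ICN+. Without dox the lines differed by 0.11 (adjusted p = 0.5566), and with it they moved in opposite directions (log2 difference -4.50 ± 0.15, adjusted p = 4.8e-17). *FGL2*, a fibrinogen-like protein (-3.29), and *SPRY1*, an inhibitor of receptor tyrosine kinase signaling (-3.19), also rose in the MEF2C line and fell in the joint line on the log2 scale. *GFI1B*, a repressor of the erythroid and megakaryocyte lineages, had log2 levels of 10.02, 10.03 and 10.18 in M- and 9.96, 9.84 and 9.81 in M+, against 9.23, 9.20 and 9.24 in M_ICN- and 4.56, 4.88 and 4.88 in M_ICN+. It lost most of its signal in the joint line (log2 difference -4.24 ± 0.11, adjusted p = 7.0e-19), and ICN alone lowered it too (-3.56 ± 0.08). *CPA3*, a mast cell protease, fell by 2.87 on the log2 scale in the joint line and rose by 0.25 in the MEF2C line (log2 difference -3.12 ± 0.10), while ICN alone changed it by -0.54.

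Genes that answer to MEF2C were also chosen on other arrays. The MEF2C-responsive genes met the study's criteria in the same direction on both OP9-GFP and OP9-DL1, arrays that the difference does not use. Those arrays are all of the MEF2C line, so the joint line took no part in the choice. How far a smaller effect in the joint line comes from that choice was not tested. Of the 105 that rose on stroma, 97 rose in the MEF2C line in medium. In the joint line 52 of them rose, 10 fell and 43 did not pass. Their median log2 dox effect was 1.09 in the MEF2C line and 0.27 in the joint line, and in the difference 17 (16.2%) were called higher and 62 (59.0%) lower, with a median of -0.69. Of the 112 that fell on stroma, 92 fell in the MEF2C line and 89 in the joint line, where 10 rose. Here the median log2 dox effect was -0.84 in the MEF2C line and -1.37 in the joint line, and in the difference 19 (17.0%) were called higher and 52 (46.4%) lower, with a median of -0.46. At these criteria both lists were thus lower in the difference, one as a smaller rise and the other as a deeper fall. The deeper fall depended on the cutoff. In a stricter list of genes that fell (adjusted p under 0.05 and a log2 beyond 1, 36 members), 30.6% were higher and 36.1% lower. Over all genes, 2.94% were called higher and 7.53% lower in the difference.

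Responses to MEF2C called in both lines include *SCG2*, a secreted granin, *COBL*, an actin nucleator, and *KYNU*, an enzyme of tryptophan breakdown. *SCG2* had log2 levels of 3.22, 3.20 and 2.90 in M- and 8.50, 8.62 and 8.53 in M+, and 3.51, 3.42 and 3.57 in M_ICN- and 6.90, 6.90 and 7.05 in M_ICN+. It rose in both, less in the joint line (log2 effects of 5.44 and 3.45, adjusted p of the difference = 8.9e-09). *COBL* rose by 3.08 and 3.59 on the log2 scale (difference 0.51 ± 0.19, adjusted p = 0.1019, called in 1 of the 12 fits that each left out an array, at 0.0491 without M- replicate 2). *KYNU* rose by 3.21 and 4.53 (difference 1.32 ± 0.17, adjusted p = 2.2e-06), and *TP53INP1*, a stress gene under p53, by 1.90 and 2.15 (difference 0.25 ± 0.10, adjusted p = 0.1428). The kinase gene *DYRK3* (1.96) and the adhesion receptor gene *ADGRD1* (2.67) are among the 17 with a larger rise in the joint line on the log2 scale, besides *EFEMP1*, *SLAIN1* and *IL7R*. *SCG2*, *COBL*, *KYNU*, *TP53INP1*, *DYRK3* and *ADGRD1* were chosen after their values were seen.

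The 10 genes that rose on stroma and fell in the joint line are *CASP4LP*, *DMD*, *HEMGN*, *HPGDS*, *MYLK*, *PER3*, *PLEK*, *RAG2*, *RTKN2* and *ZFPM2*. *DMD* encodes dystrophin and *MYLK* myosin light chain kinase, and their log2 dox effects were 1.09 and 1.52 in the MEF2C line and -0.71 and -0.73 in the joint line. *MYLK* began at 3.59 to 3.91 in M_ICN- against 7.53 to 7.76 in M-. *PLEK* went from log2 levels of 7.10, 7.27 and 7.27 to 9.01, 9.12 and 9.12 in the MEF2C line while the joint line lay at 4.97 or below in M_ICN- and at 3.82, 3.79 and 4.03 in M_ICN+. It began and ended lower there. Besides *AQP4*, *HEMGN*, *CSRP3* and *SLC6A13*, the 5 most negative of the list include *PSTPIP2*, a membrane-bending adaptor, with log2 dox effects of 3.25 and 0.16 (difference -3.09 ± 0.27, adjusted p = 5.1e-09).

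The 10 that fell on stroma and rose in the joint line are *BCHE*, *CAV1*, *CD3D*, *GFRA1*, *GIMAP1*, *PLAAT4*, *PLAC8*, *POU2AF1*, *ST18* and *TNFSF4*. *GIMAP1*, a lymphocyte GTPase, had log2 levels of 6.42, 6.51 and 6.49 in M- and 5.86, 5.72 and 5.60 in M+, but 7.81, 7.84 and 7.71 in M_ICN- and 9.17, 9.09 and 9.03 in M_ICN+ (log2 difference 2.06 ± 0.12, adjusted p = 4.8e-12). *PLAAT4*, a phospholipid enzyme, went from 6.20, 6.56 and 6.40 to 5.40, 5.29 and 5.24 in the MEF2C line and from 7.05, 6.83 and 7.13 to 7.88, 7.85 and 7.78 in the joint line (1.91 ± 0.13, adjusted p = 4.5e-11). Each moved without overlap, in opposite directions in the 2 lines. *CNTNAP4*, a neuronal adhesion gene, is also among the 5 most positive (log2 difference 1.97 ± 0.21), but by another route, since it fell in the MEF2C line from 6.94, 6.77 and 6.69 to 4.89, 5.12 and 4.67 and was already at 4.61 to 4.83 in M_ICN-. *TNFSF4*, the OX40 ligand, had log2 dox effects of -1.08 and 0.47. Of these 20 genes with opposite directions, those that belong to no other list were chosen after their values were seen.

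**Figure D3:**
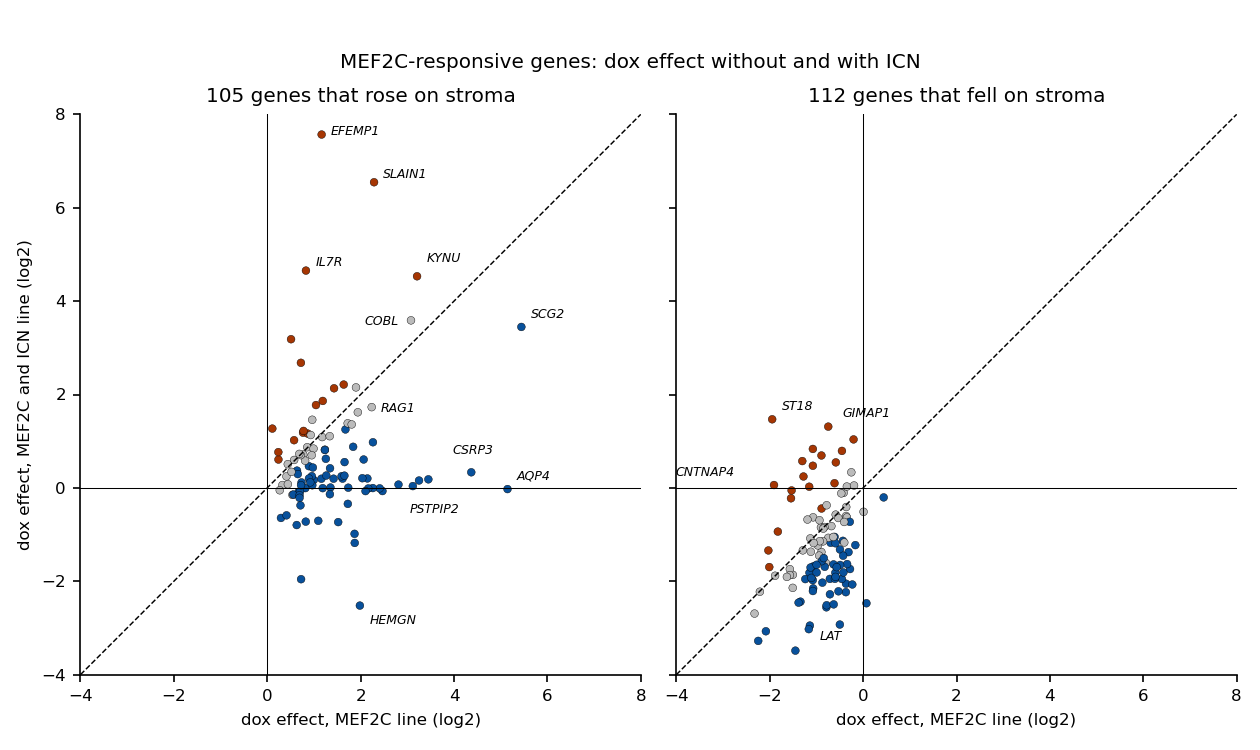
Log2 dox effect in the joint line (vertical axis) against that in the MEF2C line (horizontal axis) for the MEF2C-responsive genes, 105 that rose and 112 that fell on stroma; each point is 1 gene. Orange-brown points were called higher in the joint line and blue ones lower, grey ones were not called, and the dashed line marks equal effects; 62 of the 105 and 52 of the 112 are blue. The axes share all their arrays with the difference that sets the colours, which is the vertical value minus the horizontal one.

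The ICN line gives a second reading of ICN on arrays of its own, and dox called 1273 genes higher (6.44%) and 1862 lower (9.42%) there. Of the 582 genes higher in the difference, 273 (46.9%) rose with ICN alone and 30 (5.15%) fell. The 273 are 21.4% of the 1273 that rose. Of the 1489 lower genes, 787 (52.9%) fell with ICN alone and 77 (5.17%) rose, and the 787 are 42.3% of the 1862 that fell. ICN-responsive genes, those that met the study's criteria in the ICN line, numbered 377 up and 413 down. Of the 377, 152 (40.3%) were higher and 25 (6.63%) lower in the difference, with a median log2 difference of 0.32. Of the 413, 10 (2.42%) were higher and 291 (70.5%) lower, with a median of -0.75. The shares over all genes were 2.94% higher and 7.53% lower.

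Ligand gave a further comparison with no array in common. In the MEF2C line with dox, OP9-DL1 against OP9-GFP called 182 genes higher (0.920%) and 95 lower (0.480%). Of the 582 genes higher in the difference, 87 (14.9%) were higher with ligand and 6 lower, and the 87 are 47.8% of the 182. Of the 1489 lower genes, 52 (3.49%) were lower with ligand and 28 higher, and the 52 are 54.7% of the 95. *HES1* was higher on OP9-DL1 by 3.19 ± 0.10 on the log2 scale (adjusted p = 2.3e-17), *EFEMP1* by 1.99 ± 0.13 (adjusted p = 2.0e-10), *CD28* by 0.95 ± 0.09 (adjusted p = 8.1e-08) and *IL7R* by 0.62 ± 0.12 (adjusted p = 0.0053). *MMP20* was lower by a log2 difference of -1.56 (adjusted p = 3.2e-06), *JCHAIN* by -1.16, *AQP4* by -0.89 and *HEMGN* by -0.79. *LGMN* (-0.13, adjusted p = 0.9556), *TMEM158* (0.12, adjusted p = 0.8356) and *DTX1* (-0.11, adjusted p = 0.9373) were not called with ligand on the log2 scale, although each rose in the joint line and with ICN alone.

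**Figure D4:**
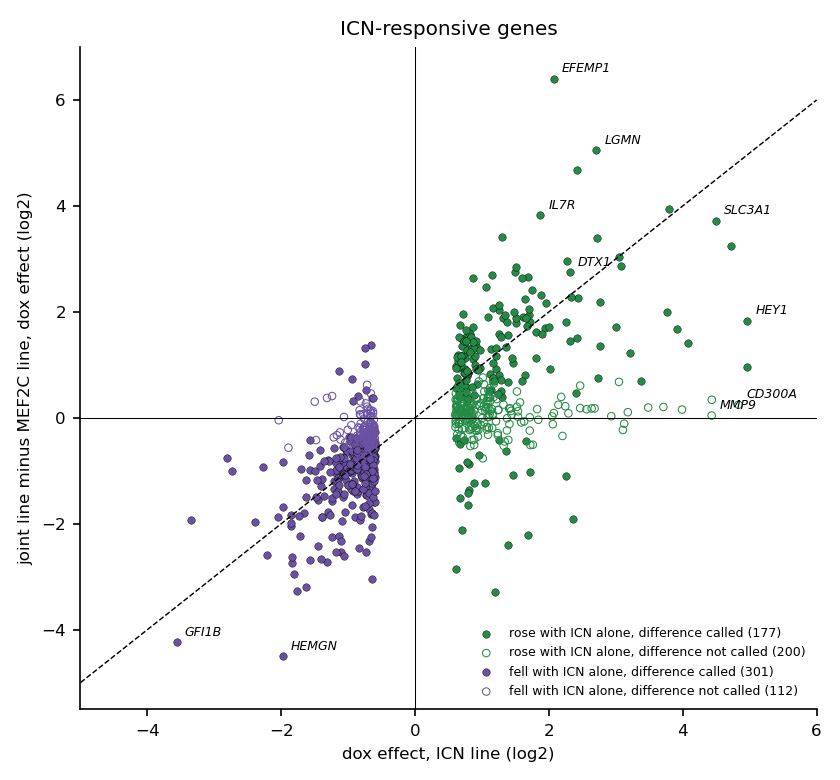
Log2 difference of dox effects between the joint line and the MEF2C line (vertical axis) against the log2 dox effect in the ICN line (horizontal axis) for the ICN-responsive genes, 377 that rose and 413 that fell. Filled points were called in the difference (177 and 301 genes) and open ones were not (200 and 112), and the dashed line marks equal values; 291 of the 413 that fell were lower in the difference too.

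The joint effect minus the sum of both single effects gives the departure from an additive response on the log2 scale, over 3 separate lines. It was called positive for 430 genes (2.17%) and negative for 773 (3.91%), and at the study's criteria for 841 and 1509 probe sets. Positive departures were led by *EFEMP1* (4.33 ± 0.23), *LOC101927432* (4.27 ± 0.21) and *SLAIN1* (4.23 ± 0.22). *LOC101927432* had log2 levels of 7.42, 7.18 and 7.12 in M_ICN+ and lay between 2.66 and 3.24 on the other 15 arrays in medium. *CCR6*, the receptor for the chemokine CCL20, had log2 levels of 5.77, 5.83 and 5.01 in M_ICN+, against 2.17 to 2.72 on the other 15 (departure 3.16 ± 0.27, adjusted p = 6.9e-09). Both genes were thus high in M_ICN+ alone. *SVOPL*, a transporter-like gene, fell in the MEF2C line by 1.01 on the log2 scale, rose in the ICN line by 0.42 and rose in the joint line by 2.30 (departure 2.89 ± 0.18, adjusted p = 4.2e-11).

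*EFEMP1* was also high in the ICN line before dox, at log2 levels of 9.47, 9.54 and 9.39 in ICN- and 11.80, 11.37 and 11.46 in ICN+, so its dox effect there was 2.08. *IL7R* (7.92 to 8.17 in ICN-) and *TMEM158* (7.83 to 8.15) were likewise higher in ICN- than in M_ICN-, and their departures were 1.95 and 2.25 on the log2 scale. The part of these uninduced levels in the departures was not tested.

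Negative departures took 2 forms. *AQP4* (-5.29 ± 0.23), *FCER1A* (-4.33 ± 0.25) and *FGL2* (-4.49 ± 0.21) rose in the MEF2C line and not in the joint line, and *FGL2* rose with ICN alone too (1.20 on the log2 scale). *CD300A*, an inhibitory receptor of leukocytes, had log2 levels of 4.67, 4.71 and 4.36 in ICN- and 9.59, 9.30 and 9.34 in ICN+, but 3.87, 3.90 and 3.81 in M_ICN- and 3.84, 4.02 and 4.14 in M_ICN+ (departure -4.59 ± 0.26, adjusted p = 5.2e-12). *MMP9*, a gelatinase, went from 6.39, 6.32 and 6.43 to 10.71, 10.80 and 10.92 with ICN alone and from 6.39, 6.33 and 6.11 to 6.27, 6.20 and 6.27 in the joint line (departure -4.39 ± 0.19, adjusted p = 8.2e-14). These 2 genes were called with dox in the ICN line and not in the joint line.

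T cell genes moved both ways. In the T cell receptor complex, *CD3D*, *CD3G* and *TRAT1* were called higher, 0 lower and 4 of 7 measured genes did not pass (median log2 difference 0.28). *CD3D*, a chain of the CD3 complex and one of the genes the study names, had log2 levels of 11.90, 11.92 and 11.95 in M- and 11.42, 11.26 and 11.34 in M+, but 11.74, 11.69 and 11.84 in M_ICN- and 12.27, 12.34 and 12.30 in M_ICN+. It fell in the MEF2C line and rose in the joint line without overlap, by a log2 difference of 1.13 ± 0.08 (adjusted p = 1.7e-10). *CD3G* fell in the MEF2C line (-0.54 on the log2 scale) and did not pass in the joint line (0.27, adjusted p = 0.1045). With ICN alone, 5 of the 7 rose.

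Among 30 measured genes of T cell signaling and surface, 4 were higher, 12 lower and 14 did not pass (median log2 difference -0.13). *CD1A* rose from log2 levels of 7.65, 7.88 and 7.68 to 9.53, 9.18 and 9.23 in the joint line and was 4.58 to 5.07 in the MEF2C line with and without dox (log2 difference 1.49 ± 0.25, adjusted p = 1.5e-04). *CD1B*, a related antigen-presenting molecule, had a log2 difference of 1.12 ± 0.24 (adjusted p = 0.0024). *THEMIS* fell from 6.25, 6.23 and 5.86 to 2.91, 3.31 and 3.15 in the joint line, against 2.03 to 2.27 in the MEF2C line (log2 difference -2.90 ± 0.18, adjusted p = 6.2e-12), and was not called with ICN alone (0.01, adjusted p = 0.9787). *LAT*, the scaffold of T cell receptor signaling, had log2 levels of 8.46, 8.68 and 8.57 in M- and 7.51, 7.41 and 7.36 in M+, and 8.37, 8.19 and 8.38 in M_ICN- and 5.68, 5.48 and 4.93 in M_ICN+. The fall in both lines was deeper in the joint line, by a log2 difference of -1.81 ± 0.17 (adjusted p = 2.4e-08), whereas *LAT* rose by 0.40 with ICN alone. *CD96* (-1.90), an adhesion receptor, and *CD69* (-1.60), an early activation marker, were also lower on the log2 scale. Of 15 T lineage transcription factors, 4 (26.7%) were higher, 3 (20.0%) lower and 8 did not pass. Higher on the log2 scale were *BCL11B* (0.93), *ETS2* (0.84), *LEF1* (0.62) and *ETS1* (0.51), and lower were *TOX* (-1.67), *SATB1* (-1.23) and *GATA3*.

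Genes of the B lineage moved both ways. Of 24 transcription factors of the B lineage, 6 (25.0%) were called higher, 5 (20.8%) lower and 13 did not pass (median log2 difference -0.02). *POU2AF1*, a B cell coactivator of Oct factors, had log2 levels of 6.71, 7.13 and 6.90 in M- and 5.43, 5.87 and 5.53 in M+, and 5.95, 5.84 and 5.93 in M_ICN- and 6.62, 6.36 and 6.45 in M_ICN+ (log2 difference 1.88 ± 0.20, adjusted p = 1.2e-07). It moved in opposite directions in the 2 lines. *BACH2*, a repressor of plasma cell fate, was higher by a log2 difference of 1.20 ± 0.15, while *POU2F2*, the Oct-2 factor (-2.24 ± 0.22), and *BCL6*, the germinal center repressor (-0.97 ± 0.10), were lower. *BCL6* rose by 0.78 in the MEF2C line and did not pass in the joint line (-0.20, adjusted p = 0.0648). Of 24 B cell receptor and surface genes, *CD53* was higher (0.40), the kinase gene *SYK* lower (-1.43 on the log2 scale) and 22 did not pass.

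Immunoglobulin and recombination genes hold several MEF2C responses that were smaller or missing in the joint line. *JCHAIN*, which joins IgM and IgA chains, had log2 levels of 2.48, 2.37 and 2.50 in M- and 4.75, 4.88 and 4.94 in M+, against 2.54, 2.72 and 2.72 in M_ICN- and 2.67, 2.60 and 2.68 in M_ICN+ (log2 difference -2.42 ± 0.15, adjusted p = 6.4e-12). It responded in the MEF2C line alone. *IGHM* and *IGHD* were also called lower, making 3 of 9 immunoglobulin genes (33.3%) with 0 higher, but their probe sets disagree, and on the probe set of largest variance the log2 differences were 2.30 and 1.05. Of 9 genes of V(D)J recombination, 2 were lower and 7 did not pass. *RAG2* had log2 dox effects of 0.83 in the MEF2C line and -0.72 in the joint line (log2 difference -1.55 ± 0.20, adjusted p = 2.8e-06), and *LIG4*, the DNA ligase of end joining, 1.31 and -0.15 (-1.47 ± 0.12, adjusted p = 9.0e-10). *RAG1*, the partner of *RAG2*, rose in both lines and with ICN alone, by 2.24, 1.73 and 1.76 on the log2 scale. Its log2 difference was -0.51 ± 0.19 (adjusted p = 0.1113), and it passed in 1 fit that left out an array (0.0478 without M_ICN+ replicate 1).

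**Figure D5:**
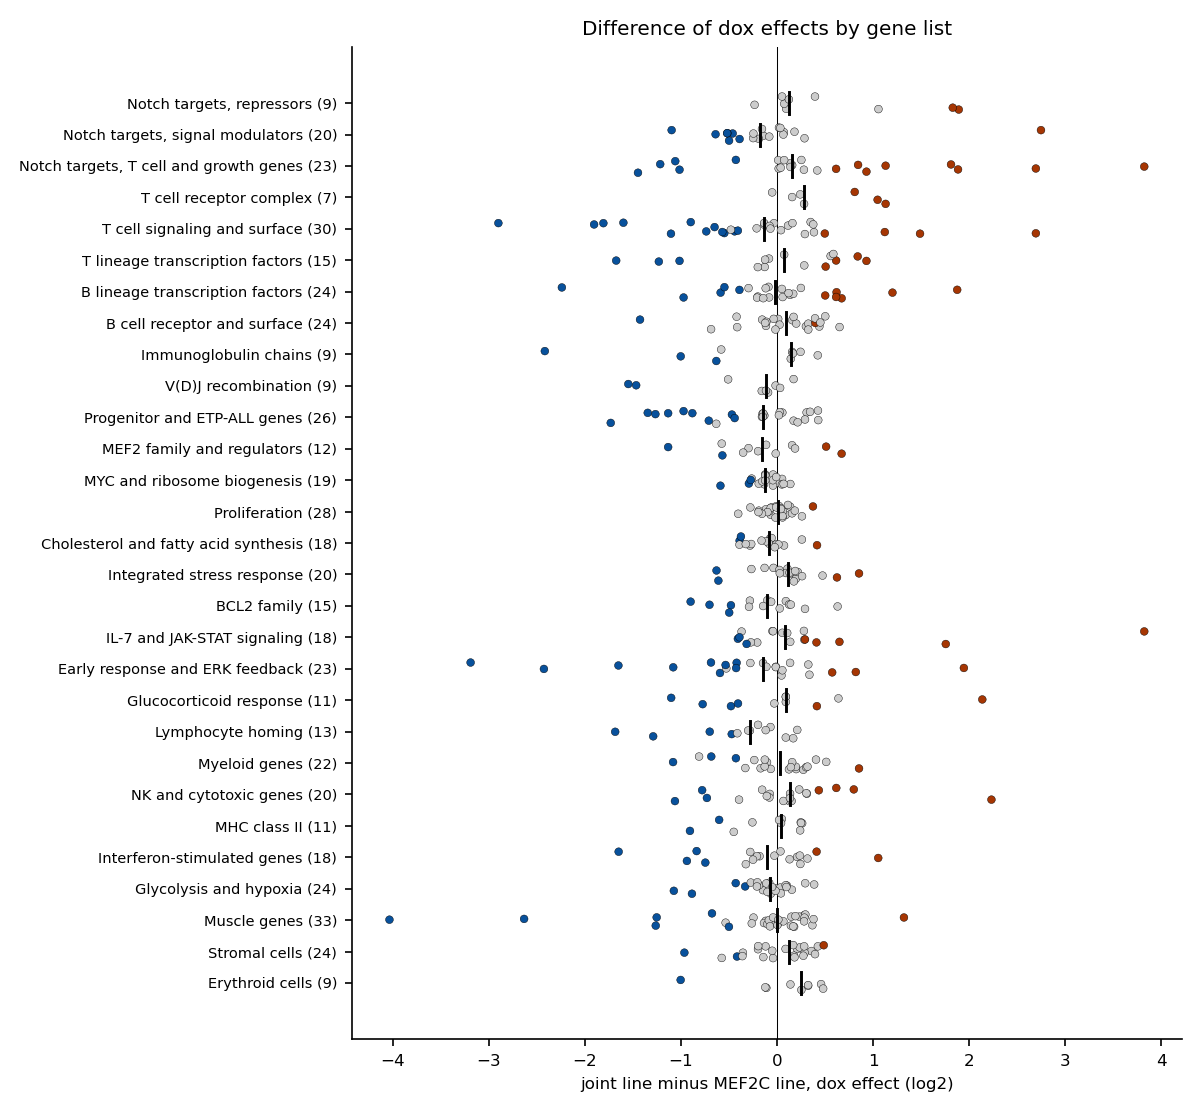
Log2 difference of dox effects (horizontal axis) for the measured members of 29 gene lists (rows), 1 point a gene, coloured by whether it was called higher, called lower or not called. Black ticks are list medians, which lie between -0.28 for lymphocyte homing and 0.28 for the T cell receptor complex.

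Genes of progenitors and ETP-ALL were called lower in 9 cases of 26 (34.6%, against 7.53% of all genes), with 0 higher and 17 that did not pass (median log2 difference -0.15). *LYL1*, a bHLH factor of early progenitors, had dox effects of -0.58 in the MEF2C line, -1.55 in the joint line and -0.96 in the ICN line on the log2 scale (difference -0.97 ± 0.11, adjusted p = 2.1e-07). *LMO4*, a LIM-only factor (-1.73), *LMO1* (-1.35) and the hyaluronan receptor gene *CD44* (-1.27) were lower as well, and *MEF2C* counts among the 9 by its brightest probe set, which fell with dox in both lines where the construct was induced. *BCL2*, which protects from apoptosis, had log2 levels of 10.30, 10.40 and 10.24 in M- and 11.18, 11.17 and 11.20 in M+, and 9.19, 9.18 and 9.20 in M_ICN- and 9.39, 9.38 and 9.30 in M_ICN+. The dox effect in the joint line did not pass (0.16, adjusted p = 0.1366), the log2 difference was -0.70 ± 0.10 (adjusted p = 1.1e-05), and ICN alone lowered *BCL2* by a log2 effect of -1.59. Of 15 measured genes of its family, 0 were higher, 4 lower and 11 did not pass.

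In the IL-7 and JAK-STAT list, 5 of 18 genes were higher and 3 lower (median log2 difference 0.08). Besides *IL7R*, *SOCS2*, an inhibitor of cytokine signaling, went from log2 levels of 8.95 to 9.01 in M_ICN- to 11.14, 11.07 and 11.06 in M_ICN+ and from 7.83, 7.73 and 7.69 to 8.07, 8.06 and 8.17 in the MEF2C line (log2 difference 1.76 ± 0.09, adjusted p = 4.1e-13). *NR3C1*, the glucocorticoid receptor, rose in the joint line from 9.79, 9.72 and 9.73 to 11.59, 11.59 and 11.67 and fell slightly in the MEF2C line from 10.18, 10.08 and 10.24 to 9.85, 9.98 and 9.88. Both moved without overlap, with a log2 difference for *NR3C1* of 2.14 ± 0.10 (adjusted p = 5.9e-14) and a dox effect of 1.25 with ICN alone. Of 11 genes of the glucocorticoid response, 2 were higher, 4 lower and 5 did not pass.

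Feedback genes of ERK signaling split. Of 23 early response and feedback genes, 3 were higher, 9 lower and 11 did not pass (median log2 difference -0.15). *SPRY1* went from log2 levels of 8.50, 8.66 and 8.52 to 10.13, 10.31 and 10.28 in the MEF2C line and from 9.73, 9.70 and 9.63 to 8.25, 8.15 and 8.13 in the joint line. *ETV5*, a transcription factor downstream of ERK, was lower by a log2 difference of -2.43 ± 0.11 (adjusted p = 2.5e-14), while *SPRY4*, of the same family as *SPRY1*, was higher (1.95 ± 0.20, adjusted p = 5.8e-08). *SPRY1* and *SPRY4* thus stood on opposite sides.

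Of 33 muscle genes, 1 (3.03%) was higher, 6 (18.2%) lower and 26 did not pass (median log2 difference 0.01). A mean log2 level under 5 over all arrays was found for 21 of the 33. Among the 6 lower ones, *ACTN2* lost its call when any 1 of 9 arrays was left out, and *MYH3* when any 1 of 7 was. The giant sarcomere gene *TTN*, whose promoter with a MEF2 core is shown above, fell in the MEF2C line from log2 levels of 7.64, 7.93 and 7.90 to 6.24, 6.42 and 6.18, and lay at 5.21, 4.97 and 5.33 in M_ICN- and 5.12, 4.91 and 4.82 in M_ICN+. It was higher in the difference (1.32 ± 0.16, adjusted p = 8.0e-07) by way of the fall in the MEF2C line. *MB* fell in the joint line from 7.92, 8.09 and 8.15 to 5.92, 6.01 and 5.86 and rose from 5.14, 4.60 and 4.75 to 5.32, 5.24 and 5.47 in the MEF2C line (log2 difference -2.63 ± 0.14). *CSRP3* had the largest fall of the list. Of 12 measured genes of the MEF2 family and its regulators, *HDAC4* (0.51) and *HDAC5* were higher, *MEF2C* (-1.13) and *SIK3* (-0.57) lower on the log2 scale and 8 did not pass. *HDAC4* was not called by an unmoderated t-test of the same contrast or by other choices of its probe sets. *HDAC5*, a class IIa deacetylase that binds MEF2 factors, rose by 0.36 in the MEF2C line and 1.03 in the joint line (log2 difference 0.67 ± 0.11, adjusted p = 1.1e-04).

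Cytotoxic and homing genes hold further large values. Of 20 NK and cytotoxic genes, 4 were higher, 3 lower and 13 did not pass (median log2 difference 0.13). *GZMA*, a granzyme, went from log2 levels of 5.89, 6.28 and 6.18 to 8.25, 8.23 and 8.24 in the MEF2C line and from 7.48, 7.30 and 7.48 to 11.74, 11.82 and 11.77 in the joint line. It rose in each line, with a log2 difference of 2.23 ± 0.12 (adjusted p = 8.8e-13), and with ICN alone by 1.65. Of 13 homing genes, 4 were lower and 0 higher (median -0.28), among them the chemokine receptor genes *CXCR3* (-1.69 ± 0.18) and *CCR7* (-1.29 ± 0.19) on the log2 scale.

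The remaining lists are given beside the 2.94% of all genes called higher and the 7.53% called lower. Of 28 proliferation genes, *RRM2*, a subunit of ribonucleotide reductase, was higher (0.37 on the log2 scale, 3.57% of the list), 0 were lower and 27 did not pass, with a median log2 difference of 0.01. Of 19 measured genes of the MYC and ribosome list, 3 were lower (15.8%) and 0 higher. Of 18 of cholesterol and fatty acid synthesis, 1 was higher (5.56%) and 2 lower (11.1%), and of 20 of the integrated stress response, 2 were higher and 2 lower. Glycolysis and hypoxia genes were lower in 4 of 24 cases (16.7%) and higher in 0. Interferon-stimulated genes were higher in 2 of 18 (11.1%) and lower in 4 (22.2%). Among them *IRF7* lost its call when any 1 of 8 arrays was left out, *IFIT1* when any 1 of 7 was and *IFIT2* when either of 2 was. MHC class II genes were lower in 2 of 11 (18.2%) and higher in 0. Among genes of cells that the cultures should not hold, 1 of 22 myeloid genes was higher and 3 lower, 1 of 24 stromal genes higher and 2 lower, and 1 of 9 erythroid genes lower. Of the 19 measured genes that the study names from the arrays, 3 were higher and 12 lower (median log2 difference -0.63), and since the study chose these genes on these samples, this count is not independent evidence of a direction.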

How the data were processed

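LOUCY RNA was hybridised to Affymetrix expression arrays (HG U133 Plus 2.0). The deposited values are log2 signals that the authors made by RMA (affy 1.64.0 in R 3.6.3, per the submitters' processing notes). RMA normalizes all arrays to 1 distribution, so a shift shared by all genes would not be seen. Of 54675 probe sets, 62 controls were left out. limma 3.58.1 (R 4.3.3) was fitted to 30 arrays in 10 groups, with Benjamini-Hochberg adjustment over 54613 probe sets. A gene (19775 in all) was read from its brightest probe set with 1 symbol, and 41091 probe sets had 1, 1801 several and 11721 were not listed. The symbols are GEO's platform annotation, and promoters are RefSeq's (GRCh38.p14).

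The difference is (M_ICN+ minus M_ICN-) minus (M+ minus M-), and the departure further subtracts (ICN+ minus ICN-). Named were the 10 largest rises and 10 largest falls of the difference at the study's criteria with arrays that did not overlap, 5 each way of the departure, 5 each way of the MEF2C-responsive genes, members of the gene lists and genes the study names. The genes and lists were chosen with earlier results of these data known. XIST and Y-linked genes were left out. On simulated data for the difference (54613 probe sets), 85 of 100 log2 changes of 1 and 100 of 100 of 2 were recovered, with 7 calls where nothing was changed. The simulated noise was independent between probe sets. Deviations shared across an array were not simulated, so the 7 calls do not measure false calls in the real arrays. The number of arrays limits the precision. Alternatives were the arrays fitted, replicate block, filter on dim probe sets, quantile normalization, median centring, limma with trend and robust settings, an unmoderated t-test of the same contrast, thresholds, choice of probe set and leaving out each array.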

Additional observations from a re-analysis of the deposited data

Results flagged for a closer look

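The 20 genes named by the size of the difference were chosen among those that met the study's criteria in limma's test of it. That their dox effect differs between the joint line and the MEF2C line was thus set by the choice and is no further evidence. The log2 differences (joint line minus MEF2C line) were 6.40 for *EFEMP1*, 5.05 for *LGMN*, 4.68 for *TMEM158*, 4.26 for *LOC101927432*, 4.26 for *SLAIN1*, 3.95 for *LINC02762*, 3.83 for *IL7R*, 3.72 for *SLC3A1*, 3.42 for *ST18* and 3.40 for *NDST3*. On the other side they were -5.17 for *AQP4*, -4.50 for *HEMGN*, -4.24 for *GFI1B*, -4.12 for *FCER1A*, -4.04 for *CSRP3*, -3.77 for *MMP20*, -3.29 for *FGL2*, -3.27 for *SLC6A13*, -3.19 for *SPRY1* and -3.12 for *CPA3*.

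The 10 genes named by the departure from the sum of the single effects in the MEF2C and ICN lines were chosen in the same way. Their departures are likewise no further evidence. These log2 departures were 4.33 for *EFEMP1*, 4.27 for *LOC101927432*, 4.23 for *SLAIN1*, 3.16 for *CCR6* and 2.89 for *SVOPL*, and -5.29 for *AQP4*, -4.59 for *CD300A*, -4.49 for *FGL2*, -4.39 for *MMP9* and -4.33 for *FCER1A*.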

How the results depend on the processing

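The count of probe sets higher in the difference (856) was 546 among those with a mean log2 level of at least 5, 1386 at an adjusted p under 0.05 with no fold threshold and 368 with a log2 beyond 1, and the count of lower ones (1734) was 2926 and 619 at these 2 thresholds. Positive departures (841) numbered 483 with the filter. In stricter lists (adjusted p under 0.05 and a log2 beyond 1), 30.6% against 17.0% of the MEF2C-responsive genes that fell, and 0.9% against 2.4% of the ICN-responsive genes that fell, were higher in the difference. Lower in the difference were 36.1% against 46.4% of the MEF2C-responsive genes that fell. Leaving out 1 array gave 833 to 1060 higher and 1518 to 1946 lower probe sets, and 704 to 1073 positive and 1248 to 1684 negative departures. The shares of MEF2C-responsive genes that rose were then 14.3% to 16.2% higher and 52.4% to 59% lower, and of those that fell 16.1% to 17% and 41.1% to 47.3%. For ICN-responsive genes they were 38.7% to 40.3% and 4.8% to 7.4%, and 2.2% to 2.4% and 67.3% to 71.9%. Of 198 single values, 58 lost the call or reversed under some alternative, 23 of them when 1 array was left out. *IGHD* reversed to 1.05 with the probe set of largest variance, and *IGHM* to 0.84 with the mean of its probe sets and 2.30 with that of largest variance, since these probe sets disagree. Arrays with the same replicate number did not deviate together (correlations of -0.220 to 0.155 among the 12 arrays, 3 of 18 over 0.1, and of -0.365 to 0.330 among all 30). With the replicate number as a block, 854 probe sets were higher and 1748 lower in the difference, and 0 of the 198 single values lost the call. Signal over background was not assessed here, so a change to or from a low level may be larger than its value.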
